A study of Mus musculus with 24 samples.

Results

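The promoter contacts of wild-type (WT) neural crest cells of the second pharyngeal arch at E11.5, labelled PA2, were compared with those of WT neural crest progenitors at E8.5. Members were taken by their sample titles, which gave 2 PA2 libraries and 2 E8.5 libraries of the 24 libraries in the series, each group with 2 biological replicates. The measure was promoter capture Hi-C, in which chromatin is cross-linked with paraformaldehyde, cut with HindIII and ligated, and ligation products that hold a promoter fragment are enriched with probes. A promoter fragment is called a bait here, and a called pair is a bait and another fragment listed together with a score of 5 or more. Per the labels' protocols, the crest cells came from Wnt1::Cre;ROSARFP embryos and were collected by fluorescence-activated sorting. As far as that protocol covers both groups, they carried the same Cre driver and reporter, and sorting kept cells in which the Wnt1 driver had acted and their descendants. No mutation or treatment is labelled in either group. Other E11.5 libraries of the series are set beside them below. These are WT crest of other facial regions and libraries labelled Ezh2cKO, Hoxa2PTE-36kb-del or Hoxa2PTE-42kb-del. The sources used here do not give how many embryos went into a library or whether embryos were pooled. Because the 2 groups differ in age as well as in the region sampled, age and region cannot be told apart in this comparison.

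Cranial neural crest cells leave the dorsal neural tube, migrate into the face and pharyngeal arches and form much of the skeleton and connective tissue there. Crest of the second arch is known for its Hox code: Hoxa2 is expressed there and not in the first arch, and it directs second arch skeletal identity, while Dlx genes pattern the arches from top to bottom. Promoters of such genes can contact distant enhancers across gene-poor DNA, and promoters of silent developmental genes marked by Polycomb proteins can contact one another over long distances.

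The promoters of 4 genes are printed because the results turn on them: Hoxa2 and Dlx2 exchanged most of their partners between the stages, contacts of Prrx1 rose and contacts of Dll1 fell. Each window runs from 250 bases before to 50 bases after the RefSeq start site, on the build GRCm38.p6, and is given 5′ to 3′ on the minus strand. Hoxa2 lies at chr6:52164782-52165081, Dlx2 at chr2:71546705-71547004, Prrx1 at chr1:163313601-163313900 and Dll1 at chr17:15376883-15377182, each inside the bait of its gene. Capitals mark exact matches, on either strand, to the Meis core TGACAG, the GC box GGGCGG, the CCAAT box CCAAT or the HindIII site AAGCTT, and no matches overlapped.
Hoxa2: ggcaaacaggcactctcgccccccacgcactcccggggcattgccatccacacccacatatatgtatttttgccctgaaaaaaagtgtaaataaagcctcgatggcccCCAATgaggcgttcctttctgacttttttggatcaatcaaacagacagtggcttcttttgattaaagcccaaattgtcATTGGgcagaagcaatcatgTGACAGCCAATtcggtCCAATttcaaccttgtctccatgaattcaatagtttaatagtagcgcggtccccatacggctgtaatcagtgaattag
Dlx2: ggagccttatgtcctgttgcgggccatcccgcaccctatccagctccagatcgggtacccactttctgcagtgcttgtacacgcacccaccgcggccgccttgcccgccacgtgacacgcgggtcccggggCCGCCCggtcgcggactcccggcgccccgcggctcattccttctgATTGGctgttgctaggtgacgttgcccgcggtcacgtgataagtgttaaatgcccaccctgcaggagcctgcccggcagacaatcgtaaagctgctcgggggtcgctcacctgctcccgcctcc
Prrx1: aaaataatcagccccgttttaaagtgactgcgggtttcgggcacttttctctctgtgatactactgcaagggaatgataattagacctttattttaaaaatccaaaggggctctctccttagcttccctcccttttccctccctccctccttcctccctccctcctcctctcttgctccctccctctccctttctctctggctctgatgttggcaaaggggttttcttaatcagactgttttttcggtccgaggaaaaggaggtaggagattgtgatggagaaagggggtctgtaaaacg
Dll1: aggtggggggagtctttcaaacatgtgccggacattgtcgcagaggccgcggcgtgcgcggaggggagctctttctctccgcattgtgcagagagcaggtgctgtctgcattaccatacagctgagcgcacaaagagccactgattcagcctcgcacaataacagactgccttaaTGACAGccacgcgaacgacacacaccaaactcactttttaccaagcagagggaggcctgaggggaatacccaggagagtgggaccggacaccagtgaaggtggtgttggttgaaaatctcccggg
The Hoxa2 window held 4 CCAAT boxes and 1 Meis core, 9 CpG and 45.7% G and C. The Dlx2 window held 1 GC box, 1 CCAAT box and 29 CpG at 66.3% G and C. The Prrx1 window held 0 matches and 6 CpG at 47.7% G and C, and the Dll1 window held 1 Meis core and 15 CpG at 56.3%. Over all 21262 such windows of protein-coding genes, 18.7% held a Meis core, 46.2% a GC box, 38.2% a CCAAT box and 6.69% a HindIII site. A match describes the letters only. Windows of promoters whose contacts rose, fell or were tested at all had median G and C of 57.7%, 58.7% and 57.7%, and held a Meis core in 17.5%, 19.6% and 18.1%.

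The PA2 libraries listed 169967 and 171346 called pairs and the E8.5 libraries 154922 and 163148. In cis these were 164459 and 165888 against 149642 and 157577, and read depth was unknown. The median cis distance was 463 and 453 kb in PA2 and 434 and 447 kb at E8.5, and 30.7% and 30% of cis pairs in PA2 spanned over 1 Mb, against 31.5% and 32.4% at E8.5. Pairs joining 2 baits made up 14.4% and 14.2% of pairs in PA2 and 15.8% and 15.3% at E8.5. The groups did not overlap in these values, but 2 libraries against 2 cannot give an exact two-sided permutation p below 0.333. Replicates shared more cis pairs than the stages did: the shared part of the union (Jaccard index) was 0.354 between the PA2 replicates, 0.33 between the E8.5 replicates and 0.222 to 0.225 between the stages. Batch labels differ between all libraries, so a batch effect was not tested. The p-values of the promoter test below measure only the spread within groups of the libraries fitted. Unless stated, these are all 24 libraries in 12 groups, so other tissues and genotypes enter the spread. A fit without 1 PA2 or E8.5 library leaves 1 library in that group, and its spread then comes from the other groups.

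More promoters rose than fell. Of 10344 baits tested, the share of the library's cis calls rose in PA2 at 1382 baits (13.4%) and fell at 611 (5.91%), by limma with a Benjamini-Hochberg adjusted p under 0.05. The median log2 difference over all tested baits was 0.05. Both PA2 shares lay above both E8.5 shares at 34% of the tested baits and below both at 28.4%. Among these were 1377 of the called rises and all 611 falls, so a lack of overlap adds little to a call. A fit that weighted values by their expected number of calls gave 1158 rises (11.2%) and 698 falls (6.75%). Baits were chosen by their mean over all 24 libraries, most of them E11.5, which favours baits with calls at E11.5. With baits chosen by the 4 compared libraries there were 1248 rises and 706 falls. With only these 4 libraries fitted there were 1069 rises and 747 falls. Without PA2 replicate 1 the test called 1177 baits, without PA2 replicate 2 1142, without E8.5 replicate 1 1215 and without E8.5 replicate 2 1275. At the baits that rose, 12015 cis pairs were gained, 940 lost and 4617 kept, where gained means listed in both PA2 libraries and in neither E8.5 library, lost the reverse, and kept listed in all 4. At the baits that fell, 457 were gained, 4746 lost and 2766 kept. Over all tested baits, 29475 were gained, 20192 lost and 37991 kept. The same calls sort the baits and define the pairs, so more gained pairs at risen baits and more lost pairs at fallen baits follow from the sorting. The median distance of gained partners at baits that rose was 466 kb, and that of lost partners at baits that fell was 281 kb. A total of 28 tested baits had no call in either E8.5 library and 1, the bait of the hormone receptor gene Glp1r, had none in either PA2 library. These counts cannot be compared, because the choice of baits over all 24 libraries favours those with calls at E11.5.

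**Figure D1:**
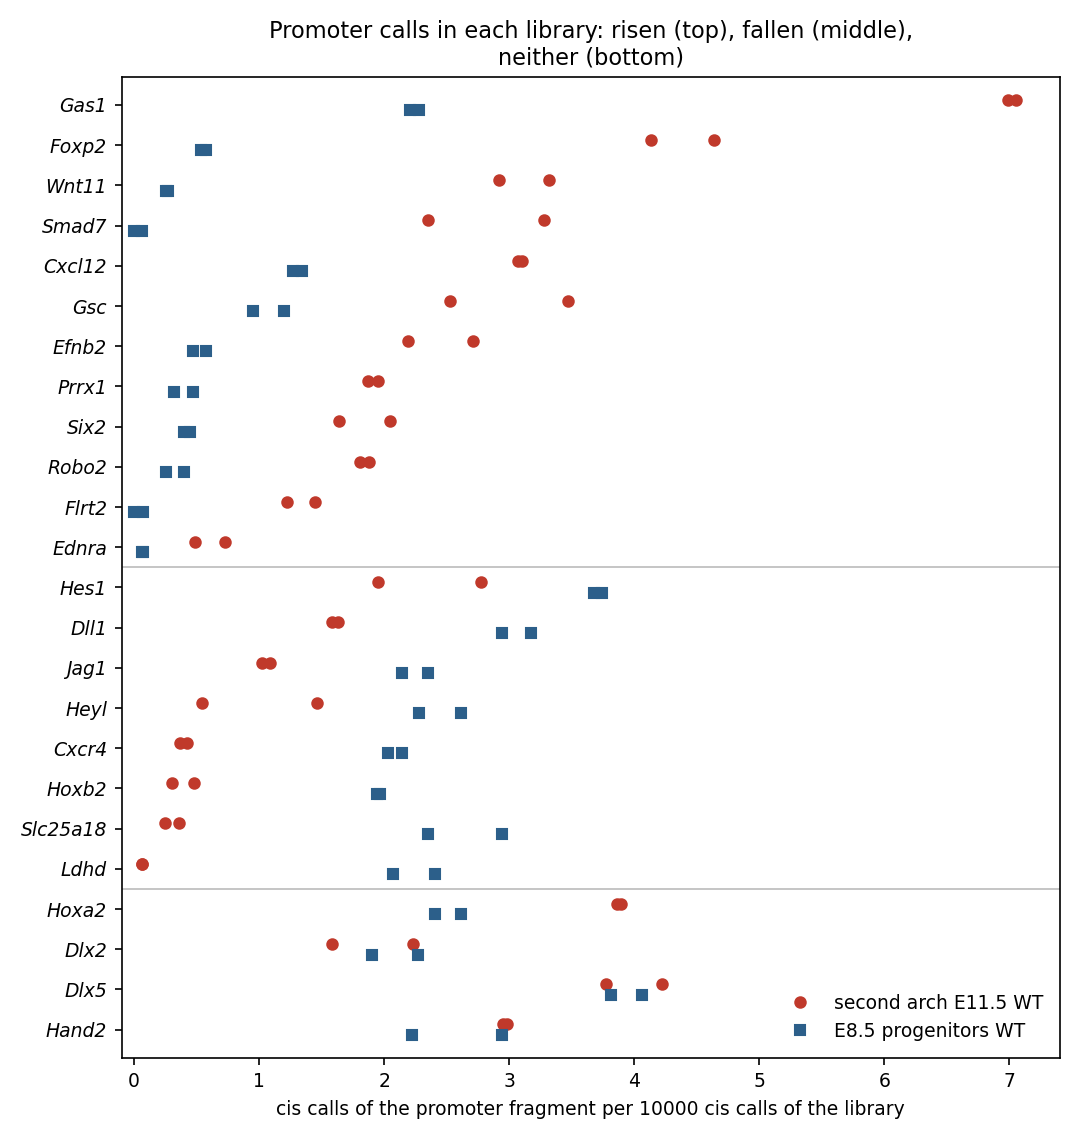
Cis calls of 24 promoter fragments per 10000 cis calls of the library (horizontal axis), with 1 point per library, red circles for the second arch at E11.5 and blue squares for E8.5. In the top block the second arch libraries lie to the right of the E8.5 libraries, in the middle block to the left, and in the bottom block are promoters that did not pass the test, among them Hoxa2 and Dlx2.

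At Hoxa2, the defining Hox gene of the second arch, the partners differed more than their number. The Hoxa2 promoter fragment (chr6:52162863-52166906) had 64 cis calls in PA2 replicate 1, 64 in replicate 2, and 39 and 38 at E8.5. Both PA2 libraries were above both E8.5 libraries, but the log2 difference of 0.62 (SE 0.34) did not pass the test (adjusted p = 0.216). It did pass when only the 4 libraries were fitted (adjusted p = 0.0252) or only the 10 WT libraries (adjusted p = 0.0287). Counting only calls up to 1 Mb turned the direction: Hoxa2 then had 13 and 13 calls in PA2 against 32 and 32 at E8.5 (log2 difference -1.41, SE 0.35, adjusted p = 0.00757).

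Position shows what was exchanged at Hoxa2. Within 200 kb of the fragment no partner was called in either PA2 library, against 19 and 22 at E8.5. Between 600 and 1500 kb on the lower-coordinate side, 64 and 64 partners were called in PA2, against 11 and 9 at E8.5. The ranges were chosen after the positions were seen, so they carry no test. In both ranges the stages were far apart and the replicates close together.

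In all, Hoxa2 gained 47 partners, lost 19 and kept 9. The gained partners lay 697 to 1488 kb away, every one on the lower-coordinate side, and 46 of the 47 overlapped no protein-coding gene. The remaining one overlapped Hnrnpa2b1, which encodes an RNA-binding protein. The kept partners lay 970 to 996.3 kb away. Of the lost partners 14 overlapped a protein-coding gene, among them Hoxa10 and Hoxa13, members of the same cluster that act in more posterior regions, and Tax1bp1, an autophagy receptor gene.

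The gained partners of Hoxa2 were nearly absent from the other E11.5 tissues. In the WT frontonasal (FNP), maxillary (Mx) and mandibular (Md) libraries, Hoxa2 had 28 and 23, 29 and 27, and 25 and 23 calls. Within 200 kb these libraries listed 11 to 16 partners, and 7 to 9 in the range of 600 to 1500 kb. Of the 47 gained partners, 46 were called in none of these 6 libraries. The difference of PA2 from the mean of the other tissues was 1.31 (log2, SE 0.28, adjusted p = 0.0485; 0.00988 with values weighted by their expected number of calls). That call was lost in each of the 8 fits that left out 1 of the libraries compared (adjusted p = 0.0747 to 0.301).

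In PA2 libraries of other genotypes the far partners of Hoxa2 were fewer. PA2 cells of the Ezh2 conditional knockout (Ezh2cKO) had 8 and 13 calls in the range of 600 to 1500 kb. The 36kb deletion, labelled Hoxa2PTE-36kb-del, had 12 and 11. The 42kb deletion, labelled Hoxa2PTE-42kb-del, had 3 and 3. Both deletion labels thus carry the name of Hoxa2 itself. The kept partners were called at 7 and 8 of 9 in Ezh2cKO, at 5 and 4 in the 36kb deletion and at none in the 42kb deletion. Within 200 kb, these libraries had 6 and 8, 7 and 3, and 6 and 6 calls, so calls near the promoter that WT second arch lacked were listed there. These values are set beside the WT libraries with no test of the genotypes, and the positions of the deletions were not used. The PA2 deletion libraries listed 142284 to 158363 called pairs in all, fewer than either WT PA2 library.

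Dlx2, which encodes a homeobox factor that patterns the arches, had no partner called in all 4 libraries. A partner 282.2 kb away was called in both PA2 libraries and in E8.5 replicate 2. Its fragment (chr2:71536367-71550155) had 26 and 37 calls in PA2 and 34 and 30 at E8.5, so the stages overlapped (log2 difference -0.15, SE 0.31, adjusted p = 0.795). Dlx2 gained 19 partners, lost 21 and kept 0. Among the tested baits, 63 had at least 10 gained and 10 lost pairs, and Dlx2 was the 1 of these with no kept pair.

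The gained and lost partners of Dlx2 lay on opposite sides. Gained partners lay 170 to 390.7 kb away, 18 of the 19 on the lower-coordinate side, and 10 overlapped Dync1i2, a dynein subunit gene, and 7 Slc25a12, a mitochondrial carrier gene. Lost partners lay at a median of 3140 kb, 19 of the 21 on the higher-coordinate side, and they included Evx2, Hoxd8 and Hoxd10 to Hoxd13, genes of limb and trunk patterning. Between 100 and 400 kb on the lower-coordinate side Dlx2 had 24 and 32 calls in PA2 and 0 and 1 at E8.5, and between 3000 and 3300 kb on the higher-coordinate side 0 and 0 against 19 and 18. Again the ranges were chosen after the positions were seen.

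Counting calls up to 1 Mb only, Dlx2 rose from 6 and 5 calls to 26 and 36 (log2 difference 2.24, SE 0.39, adjusted p = 0.000416). Its neighbour Dlx1, a gene of the same pair, showed the same positions, with 24 and 24 calls against 0 and 0 on the near side and 0 and 0 against 12 and 15 at the far one. The 2 genes are neighbours, so their values are not independent observations. In WT FNP, Mx and Md libraries, Dlx2 had 3 and 9, 8 and 3, and 7 and 10 calls on the near side, fewer than in either PA2 library. The difference of PA2 from these tissues over all cis calls was 1.21 (log2, SE 0.25, adjusted p = 0.0485; 0.0243 weighted), and it was lost in 7 of the 8 fits that left out 1 library (adjusted p = 0.0662 to 0.508).

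**Figure D2:**
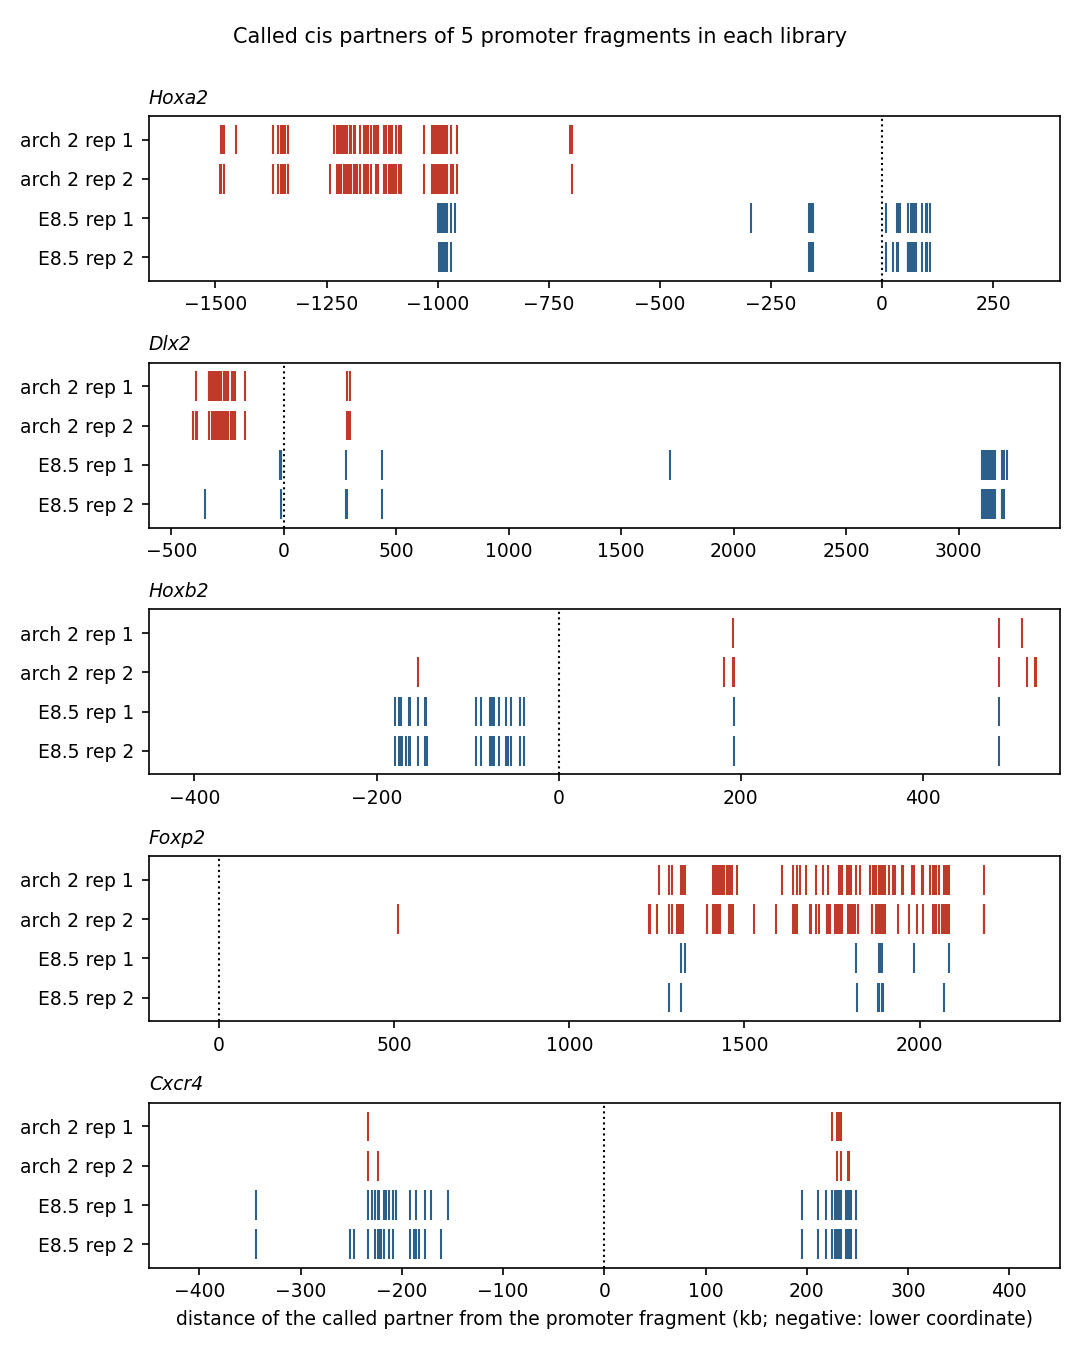
Called cis partners of 5 promoter fragments, with 1 tick per partner, 1 line per library and distance from the fragment in kb on the horizontal axis (red, second arch; blue, E8.5). Partners of Hoxa2 and Dlx2 lie in different places at the 2 stages, while those of Hoxb2 and Cxcr4 thin out and those of Foxp2 increase.

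**Figure D3:**
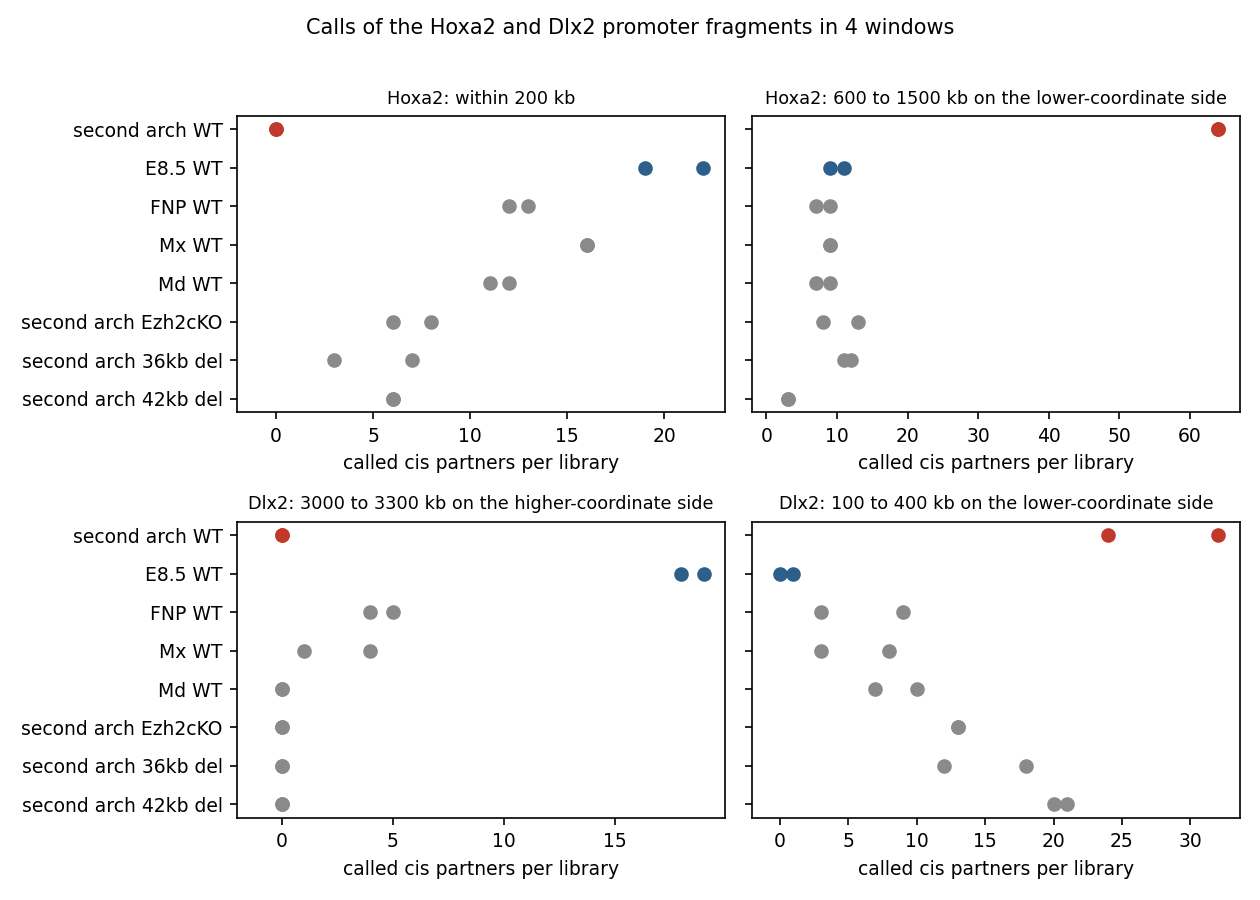
Called cis partners of Hoxa2 and Dlx2 per library (horizontal axis) in 4 distance ranges, with 1 point per library and groups as lines. WT second arch libraries had 0 Hoxa2 partners within 200 kb and 64 at 600 to 1500 kb on the lower-coordinate side.

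With all libraries fitted, no Hox cluster promoter rose. Of 41 tested baits of Hox cluster genes 0 rose and 4 fell (9.76% called, against 19.3% of all baits), with a median log2 difference of -0.15. After median centring, or in the weighted fit, 7 changed, nearer the share over all baits (17.9% in the weighted fit). Without PA2 replicate 1, 2 fell, and without E8.5 replicate 1, 3 fell and 1 rose. Hoxb2, a paralogue of Hoxa2, fell most: its fragment (chr11:96348585-96354229) had 5 and 8 calls in PA2 and 29 and 31 at E8.5 (log2 difference -2.26, SE 0.33, adjusted p = 4.29e-05). It lost 20 partners, among them Hoxb3, Hoxb5, Hoxb6, Hoxb7 and Hoxb8 and the transcription factor genes Ikzf3 and Neurod2, and kept 1, at Nfe2l1. Within 200 kb it had 1 and 4 calls in PA2 against 19 and 23 at E8.5.

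Hoxb3, the neighbour of Hoxb2, fell from 27 and 37 calls to 10 and 11 (log2 difference -1.65, SE 0.38, adjusted p = 0.00361). The Hoxb2 and Hoxb3 fragments are neighbours and both lost partners at Hoxb5, so their falls are not independent observations. A second Hoxb2 fragment had 4 and 7 calls against 12 and 24 (adjusted p = 0.0176), a call lost without PA2 replicate 1 (adjusted p = 0.16) or without E8.5 replicate 2 (0.183). Hoxd3 had 25 and 32 calls against 45 and 37 (log2 difference -0.63, adjusted p = 0.0408), lost without PA2 replicate 1 (0.281), PA2 replicate 2 (0.0523) or E8.5 replicate 1 (0.287). Pairs joining 2 Hox promoters numbered 84 and 76 in PA2 and 107 and 113 at E8.5, and 7 were gained, 25 lost and 52 kept. Without cis pairs closer than 100 kb these were 36 and 28 against 36 and 43, with 7 gained, 7 lost and 5 kept, so at long range the stages touched.

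The Hoxb2 fragment also differed from the other tissues. It had 19 and 37 calls in FNP, 24 and 32 in Mx and 26 and 26 in Md, all above the PA2 libraries (log2 difference of PA2 from their mean -1.98, SE 0.27, adjusted p = 0.00138). Without PA2 replicate 1 this was no longer called (adjusted p = 0.0702). In PA2 of Ezh2cKO, Hoxb2 had 19 and 14 calls, and in the deletion libraries 3 to 5.

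Of the Hox cofactor genes, whose products bind DNA with Hox proteins, 2 of 6 tested baits rose and 0 fell, and 1 rose in each fit without PA2 replicate 1, PA2 replicate 2 or E8.5 replicate 2. Meis2 had 11 and 14 calls against 7 and 2 (log2 difference 1.47, adjusted p = 0.0294), and its call was lost without PA2 replicate 1 (0.075), PA2 replicate 2 (0.163) or E8.5 replicate 2 (0.437). Meis1, with 17 and 19 against 11 and 11, did not pass (log2 difference 0.58, adjusted p = 0.104; -0.66 with calls up to 1 Mb only, adjusted p = 0.12).

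Among regulators of the arches and lower jaw, 10 of 31 tested baits rose, 21 did not pass and 0 fell. This is 32.3% changed, against 13.4% that rose and 19.3% that changed over all baits, with a median log2 difference of 0.34 against 0.05 over all baits. Those that rose included Prrx1, Pou3f3, Tbx2, Dlx3, Gsc, Barx1, Six2, Nr2f2 and Ednra. The count was 6 without PA2 replicate 1, 8 without PA2 replicate 2, 9 without E8.5 replicate 1 and 5 without E8.5 replicate 2. Summed over the list, calls per 10000 cis calls were 56.5 and 55.1 in PA2 and 43.3 and 39.6 at E8.5.

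Prrx1, which encodes a homeobox factor of facial and limb mesenchyme, had 32 and 31 calls in PA2 and 7 and 5 at E8.5. The log2 difference was 2.21 (SE 0.29, adjusted p = 1.26e-05). All 15 gained partners of the Prrx1 fragment (chr1:163292847-163320894), whose promoter is printed above, lay 32.4 to 563.7 kb away on the higher-coordinate side, and it lost none in both replicates. The 6 other WT E11.5 libraries each listed 4 to 12 of them.

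Six2, of a homeobox factor held in mesenchymal progenitors, had 27 and 34 calls against 6 and 7 (log2 difference 2.04, SE 0.21, adjusted p = 5.1e-07) and gained 21 partners 102 to 386.4 kb away on both sides. Gsc, which encodes a homeobox factor needed for jaw and ear skeleton, had 57 and 42 calls against 18 and 15 (1.44, SE 0.26, adjusted p = 0.000463). Its 29 gained partners all lay on the higher-coordinate side, nearest at 151 kb. With only calls of score 10 or more, the Gsc difference was -0.23 (adjusted p = 0.816), so its direction rested on weaker calls.

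Pou3f3, of a POU factor expressed in arch mesenchyme, had 60 and 48 calls against 22 and 23 (1.13, SE 0.21, adjusted p = 0.000658), and its 22 gained partners lay 788 to 1824 kb away on the lower-coordinate side, all outside protein-coding genes. Ednra, the endothelin receptor that specifies lower jaw and arch crest, had 8 and 12 calls against 1 and 1 (2.68, SE 0.50, adjusted p = 0.000696). These 5 promoters kept their call whichever of the 4 libraries was left out. They were above E8.5 in every PA2 library, as were 34% of all tested baits.

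Barx1, a homeobox gene of arch mesenchyme, had 19 and 16 against 8 and 9 (0.89, adjusted p = 0.0486) and was called in none of the fits with 1 library left out (0.101 to 0.228). Barx1 is thus a weaker example than Prrx1 and Six2.

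Several defining arch genes did not pass the test. Hand2, which specifies the lower part of the arches, had 49 and 49 calls against 44 and 35 (log2 difference 0.21, SE 0.17, adjusted p = 0.415), although 16 partners were gained and 4 lost beside 19 kept. Dlx5, a partner of Dlx6 in lower jaw identity, had 62 and 70 against 57 and 64 (0.02, SE 0.18, adjusted p = 0.958), with 14 gained, 14 lost and 28 kept. Eya1 had 10 and 10 against 8 and 11 (-0.02, SE 0.28, adjusted p = 0.975). For Hand2 and Dlx5 a similar number of calls thus came with a partly different set of partners.

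Eya1, of a phosphatase and transcriptional cofactor, differed between PA2 and the other E11.5 tissues, where it had 18 to 40 calls (log2 difference -1.46, SE 0.22, adjusted p = 0.00502). Without PA2 replicate 1 or PA2 replicate 2 this was not called (0.0702 and 0.0628). Msx1 (23 and 27 calls against 15 and 9, adjusted p = 0.0505), Sox9 (20 and 17 against 9 and 11, 0.0675) and Twist1 (16 and 16 against 14 and 12, 0.652) also did not pass.

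Forkhead genes of face mesenchyme included one of the firmest rises. Foxp2, which encodes a forkhead factor, had 68 and 77 calls in PA2 and 8 and 9 at E8.5 (log2 difference 2.91, SE 0.18, adjusted p = 3.15e-10). Its 28 gained partners lay 1290 to 2183 kb away, all on the higher-coordinate side, and 27 overlapped no protein-coding gene. In the range of 1200 to 2200 kb on that side it had 68 and 76 calls against 8 and 8. Of the 10 tested baits of these forkhead genes, 4 rose (Foxc1, Foxp2, Foxc2 and Foxl2) and Foxd2 fell, against 13.4% and 5.91% of all baits. The fall of Foxd2 (adjusted p = 0.0382) was lost in every fit with 1 library left out (0.0586 to 0.248) and turned with calls up to 1 Mb only (0.25). The count of rises was 4 without PA2 replicate 1, 2 without PA2 replicate 2, 3 without E8.5 replicate 1 and 2 without E8.5 replicate 2.

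Among frontonasal genes 4 of 13 tested baits rose (Tfap2a, Zic2, Six2 and Alx4) and 0 fell, against 13.4% and 5.91% over all baits, with a median of 0.26, and 2 rose in each fit without PA2 replicate 1, E8.5 replicate 1 or E8.5 replicate 2. Tfap2a, a crest factor gene, turned with calls up to 1 Mb only (-0.52) and with scores of at least 10 (-0.4). Alx4, a homeobox gene of the upper face, had 15 and 18 calls against 6 and 1 (log2 difference 2.33, adjusted p = 0.00143; 0.0541 without E8.5 replicate 2). Among early crest and neural plate genes 5 of 27 rose (among them Tfap2a, Zic2, Sox8 and Ets1) and 0 fell, 18.5% against 19.3% changed over all baits, and 3 rose in each of those fits. Ets1, a factor of migrating crest, had 15 and 14 calls against 2 and 1 (2.85, SE 0.38, adjusted p = 1.71e-05). Foxd3, which marks premigratory crest, had 9 and 16 against 15 and 16 and did not pass (adjusted p = 0.671).

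**Figure D4:**
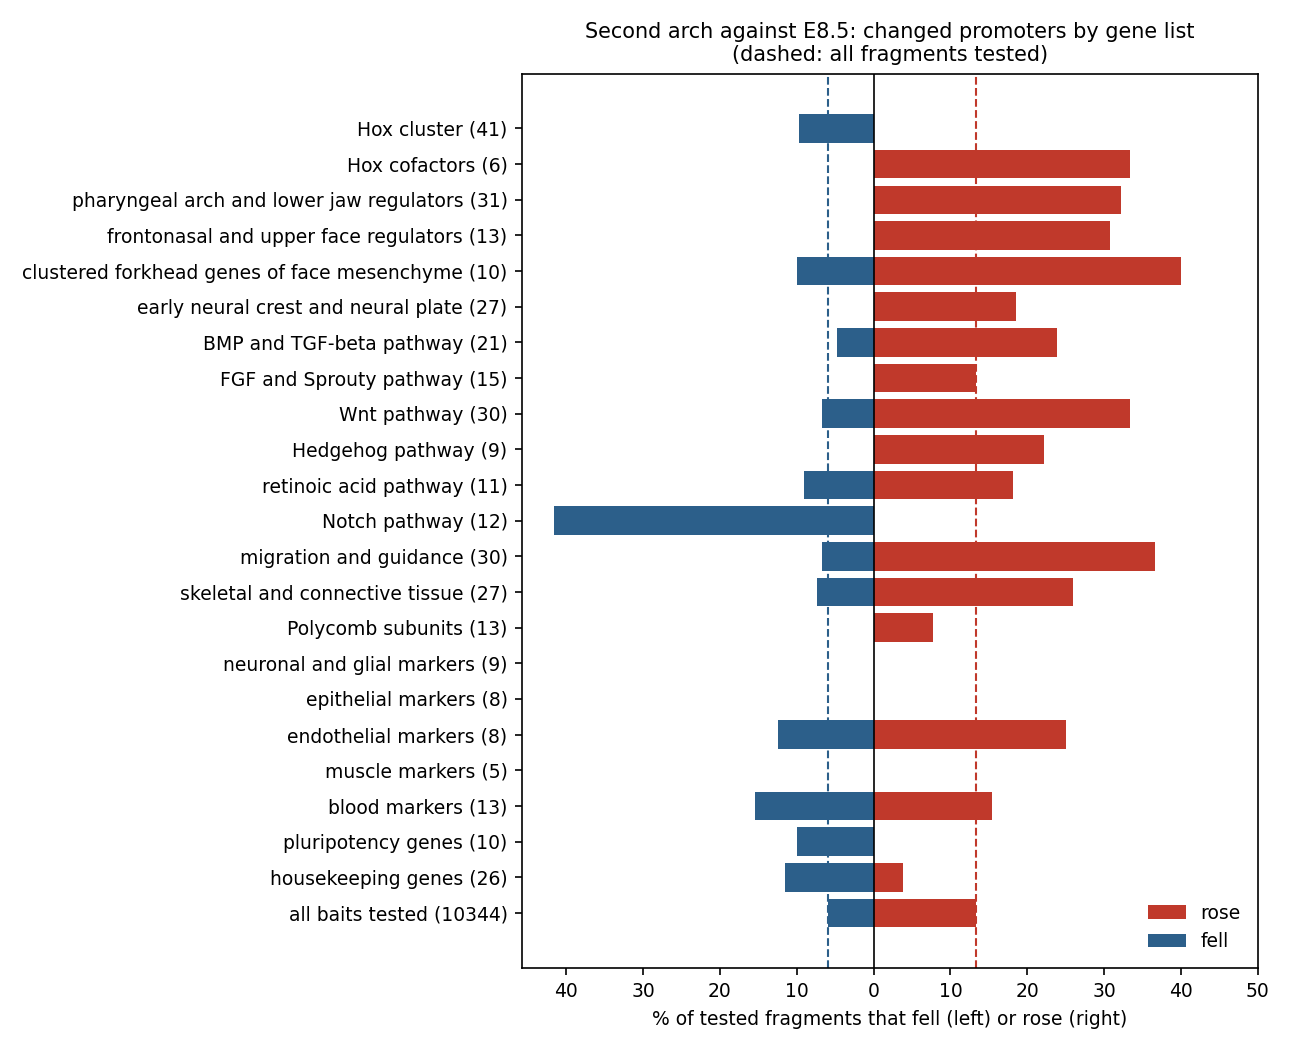
Percent of the tested fragments of each gene list that fell (left, blue) or rose (right, red) in the second arch against E8.5, with the number tested in brackets and dashed lines at the shares over all 10344 fragments. Arch regulators, Wnt genes and guidance genes extend furthest to the right among lists with over 20 fragments, and Notch genes extend furthest to the left.

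Signalling genes included the largest rise among promoters with a call in both groups. Smad7, the gene of an inhibitory Smad that dampens TGF-beta and BMP receptor signals, had 54 and 39 calls in PA2 and 0 and 1 at E8.5. The log2 difference was 5.64 (SE 0.31, adjusted p = 6.8e-11), on a scale with 0.5 calls added, which sets the size of a difference from so low a base. All 34 gained partners of Smad7 lay 33.4 to 358.7 kb away, 21 of them in Dym and 11 in Ctif, the neighbouring genes. The other 6 WT E11.5 libraries had 53 to 68 calls.

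Of 21 tested baits of the BMP and TGF-beta pathway, 5 rose (Tgfb2, Tgfb3, Inhba, Smad7 and Bmp5) and Fst fell, against 13.4% rises and 5.91% falls over all baits. Without PA2 replicate 1 the count of rises was 3, and Bmp5 was not called in any fit that left out 1 library. The ligand gene Tgfb2, needed for palate and heart, had 39 and 37 calls against 13 and 13 (log2 difference 1.41, SE 0.19, adjusted p = 1.88e-05), with 11 gained partners 514 to 1149 kb away. Tgfb3, a ligand of palate fusion, had 25 and 24 against 12 and 10 (1.02, adjusted p = 0.00141). Fst, an activin antagonist gene, had 8 and 6 against 15 and 22 (-1.43, adjusted p = 0.0213), a call lost without PA2 replicate 1 (0.0503), PA2 replicate 2 (0.147) or E8.5 replicate 2 (0.152).

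Of 30 tested baits of the Wnt pathway, 10 rose (Fzd7, Fzd2, Wnt9a, Wnt5a, Dkk1, Tcf7l2, Ror1, Fzd1, Tcf7l1 and Wnt11) and 2 fell (Wnt7b and Wnt1), 40% in all against 13.4% rises and 5.91% falls over all baits, with a median of 0.14. With 1 library left out, 6 rose without PA2 replicate 1, 4 without PA2 replicate 2, 5 without E8.5 replicate 1 and 6 without E8.5 replicate 2. Wnt11, a ligand of the pathway that steers cell movement, had 48 and 55 calls in PA2 and 4 and 4 at E8.5. The log2 difference was 3.42 (SE 0.29, adjusted p = 3.96e-08), and 39 partners 19.3 to 364.6 kb away were gained on both sides.

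Wnt5a, a ligand of arch and limb outgrowth, had 28 and 22 calls against 8 and 10 (1.32, SE 0.23, adjusted p = 0.000355). Tcf7l2, a nuclear effector of Wnt signals, had 57 and 53 against 15 and 21 (1.50, SE 0.26, adjusted p = 0.000264) with 23 gained and 9 kept partners. Wnt7b, another ligand gene, fell less (-0.74, adjusted p = 0.00519; 0.0599 without E8.5 replicate 1), and turned with scores of at least 10 (0.68). Wnt1, the ligand gene of the dorsal neural tube for which the Cre driver is named, had 12 and 7 against 23 and 21 (-1.32, adjusted p = 0.00479; 0.102 without PA2 replicate 2).

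The Wnt1 fragment also carried a value that differed between the stages and was 0 in the deletion libraries. It was paired with chromosome 11 at 455 and 439 fragments in PA2 and at 171 and 191 at E8.5. The other WT E11.5 libraries had 438 to 508 such pairs and the Ezh2cKO libraries 405 to 539. All 6 deletion libraries had 0. Of 669 trans pairs gained, 133 involved Wnt1, of 614 lost 1 did, and of 990 kept 115. The part of the Wnt1::Cre transgene in these pairs was not tested.

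In the Hedgehog pathway 2 of 9 tested baits rose and 0 fell, 22.2% against 19.3% over all baits, with a median log2 difference of -0.03. Gas1, which encodes a co-receptor of Hedgehog ligands, had 116 and 116 calls in PA2 and 33 and 36 at E8.5. The groups were far apart (log2 difference 1.63, SE 0.19, adjusted p = 3.33e-06). Gas1 gained 57 partners 7.8 to 552.3 kb away, lost 1 and kept 21, and 49 of the gained were called in at least 3 of the 6 other WT E11.5 libraries. Boc, another co-receptor gene, had 35 and 34 calls against 8 and 12 (1.66, SE 0.23, adjusted p = 3.34e-05) with 21 gained partners 21.9 to 138.8 kb away.

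In the retinoic acid pathway 2 of 11 tested baits rose and 1 fell, 27.3% against 19.3% over all baits, and the fall was called in none of the 4 fits with 1 library left out. Cyp26b1, of an enzyme that degrades retinoic acid, had 47 and 47 calls against 13 and 15 (1.61, SE 0.27, adjusted p = 0.000211). Aldh1a2, of the enzyme that makes it, had 15 and 14 against 6 and 3 (1.55, SE 0.31, adjusted p = 0.00117). Among FGF pathway genes 2 of 15 rose (Fgf18 and Fgfr1) and 0 fell, close to the share over all baits.

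Guidance and migration genes rose at 11 of 30 tested baits and fell at 2, against 13.4% and 5.91% of all baits, with a median log2 difference of 0.50. Those that rose were Epha4, Slit3, Flrt2, Sema5a, Robo2, Efna5, Flrt3, Cxcl12, Plxna4, Efnb2 and Ephb1. The counts were 7 and 0 without PA2 replicate 1, 10 and 1 without PA2 replicate 2, 8 and 1 without E8.5 replicate 1, and 11 and 0 without E8.5 replicate 2. Summed calls of the list were 32 and 33 per 10000 in PA2 and 21.5 and 22.7 at E8.5.

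Efnb2, an ephrin ligand gene that acts in crest guidance, had 36 and 45 calls against 7 and 9 (log2 difference 2.17, SE 0.18, adjusted p = 3.73e-08). Its 18 gained partners lay 513 to 3791 kb away, 17 on the lower-coordinate side and none in a protein-coding gene. Robo2, a Slit receptor gene, had 31 and 30 calls against 6 and 4 (2.41, SE 0.25, adjusted p = 5.57e-07) and gained 17 partners within a narrow stretch 1310 to 1422 kb away. Flrt2, of an adhesion and guidance protein, had 20 and 24 calls against 1 and 0 (4.59, SE 0.36, adjusted p = 1.47e-08). The nearest gained partners of Efnb2, Robo2 and Flrt2 thus lay 513, 1310 and 1490 kb away.

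The chemokine gene Cxcl12 and its receptor gene Cxcr4, which together guide migrating crest, moved in opposite directions. Cxcl12 had 51 and 51 calls in PA2 and 20 and 20 at E8.5 (log2 difference 1.22, SE 0.16, adjusted p = 1.84e-05), and gained 20 partners 256 to 686.1 kb away. Cxcr4 (chr1:128587743-128594308) had 6 and 7 calls in PA2 and 32 and 32 at E8.5 (-2.32, SE 0.61, adjusted p = 0.0105). It lost 16 partners 177 to 344.2 kb away, on both sides, and kept 3 at 230 to 234.3 kb, 1 of them at Mcm6, a replication helicase gene. The call of Cxcr4 was lost without PA2 replicate 1 (adjusted p = 0.0685), E8.5 replicate 1 (0.064) or E8.5 replicate 2 (0.0537), although replicates differed by at most 1 call, and the weighted fit gave 0.00109.

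Notch genes had falls and no rise among the baits tested. Of 17 Notch pathway genes 15 lay at a bait and 12 baits were tested: 5 fell (Dll1, Jag1, Heyl, Maml1 and Hes1), 7 did not pass and 0 rose, against 5.91% falls and 13.4% rises over all baits, with a median log2 difference of -0.64 against 0.05 over all baits. Summed calls were 11.9 and 13.1 per 10000 in PA2 and 18.3 and 20.8 at E8.5. The count of falls was 3 without PA2 replicate 1, 4 without PA2 replicate 2, 2 without E8.5 replicate 1 and 2 without E8.5 replicate 2.

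The ligand gene Dll1, whose promoter is printed above, had 26 and 27 calls in PA2 and 44 and 50 at E8.5 (chr17:15376851-15381166; log2 difference -0.92, SE 0.18, adjusted p = 0.000909). It lost 12 partners at a median of 191 kb and kept 17 at a median of 307 kb. Jag1, another ligand gene, had 18 and 17 calls against 32 and 37 (-1.06, SE 0.24, adjusted p = 0.00404), lost 9 partners 447 to 694 kb away and kept 9. Both ligand promoters kept their call whichever library was left out.

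The nuclear members rested on less. Hes1, the main target repressor of Notch, had 32 and 46 calls against 55 and 59 (-0.67, adjusted p = 0.0303), lost without PA2 replicate 1 (0.314), E8.5 replicate 1 (0.105) or E8.5 replicate 2 (0.118). Heyl, a related repressor gene, had 24 and 9 against 39 and 36 (-1.42, adjusted p = 0.026), lost without PA2 replicate 2 (0.367), E8.5 replicate 1 (0.129) or E8.5 replicate 2 (0.0795). Maml1, a coactivator gene of the Notch complex, had 2 and 7 against 15 and 18 (-2.07, adjusted p = 0.0272), lost without PA2 replicate 1 (0.296).

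Skeletal and connective tissue genes rose at 7 of 27 tested baits (Col3a1, Fn1, Twist2, Osr1, Ogn, Runx2 and Postn) and fell at 2 (Pdgfrb and Col5a1), against 13.4% and 5.91% of all baits, with a median of 0.40. Osr1, of a zinc finger factor of connective tissue, had 83 and 63 calls against 32 and 29 (1.13, SE 0.20, adjusted p = 0.000345), with 25 gained and 16 kept partners up to 1014 kb away. Fn1, the fibronectin gene, had 30 and 32 against 10 and 11 (1.41, SE 0.24, adjusted p = 0.000291). The rises in this list numbered 5 without PA2 replicate 1, 3 without PA2 replicate 2, 3 without E8.5 replicate 1 and 6 without E8.5 replicate 2, and the falls 0, 0, 1 and 0 in the same order.

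Large changes outside these lists included housekeeping and metabolic promoters. Hmgb1, of an abundant chromatin protein, had 37 and 50 calls in PA2 and 0 and 4 at E8.5 (log2 difference 4.75, SE 0.59, adjusted p = 6.18e-06). Ldhd, of D-lactate dehydrogenase, had 1 and 1 against 31 and 38 (-4.64, SE 0.81, adjusted p = 0.000355) and lost 21 partners. Slc25a18, a mitochondrial glutamate carrier gene, had 4 and 6 against 44 and 37 (-3.02, SE 0.52, adjusted p = 0.000282) and lost 24. In each, the stages were far apart and the call held whichever library was left out.

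Other large rises by rule were found at genes of diverse roles. The 15 largest among baits with a call at both stages, by log2 difference from 3.35 to 5.64, were Smad7, Hmgb1, Flrt2, Rrp15, Rplp1, Uspl1, Pla2g10, Lhfpl2, Fbxl7, Cpa1, Tom1l1, Rassf8, Wnt11, Cibar2 and Mb. Hmgb1 and Uspl1 lie near each other on chromosome 5, so their values are not independent observations. Tom1l1, of a membrane traffic adaptor, had 55 and 67 calls against 2 and 9 (3.55, SE 0.34, adjusted p = 2.68e-07) and gained 30 partners. Cpa1, of a pancreatic carboxypeptidase, had 42 and 44 against 2 and 4 (3.59, SE 0.35, adjusted p = 2.62e-07) and gained 27. Mb, the myoglobin gene, had 29 and 27 against 1 and 4 (3.35, SE 0.51, adjusted p = 8.32e-05).

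Of the baits without a call at E8.5, the largest rises with 1 gene name included Ankrd44, Celf6, Mettl17, Lrrtm1, Csnk1e, Cntnap2, Lrp1b, Vwa5b2 and Dnm1. Ankrd44 had 17 and 15 calls in PA2, Celf6, of a brain RNA-binding protein, 14 and 15, and Lrrtm1, of a synaptic adhesion protein, 12 and 12. Cntnap2, of a neuronal adhesion protein, had 12 and 7. In the weighted fit Mettl17 was not called (adjusted p = 0.093), and the other promoters of this list had adjusted p of 0.00236 to 0.0369. A fold cannot be given for baits without a call at E8.5, because a fragment that is not listed can have any score under 5. Such baits entered the test only through their calls at E11.5, so how many there are is not a result.

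The largest falls, with log2 differences from -4.64 to -2.80, were at Ldhd, Nrg2, Srek1, Tppp3, Ric8b, Nck2, Slc25a18, Trir, Seh1l, Ap1m2, Dele1, Btaf1, Traf3ip2, Eprs and Tbc1d31. Eprs, of a transfer RNA synthetase, had 5 and 7 calls against 45 and 38 (-2.81, SE 0.50, adjusted p = 0.00045) and lost 16 partners. Nrg2, of a neuregulin growth factor, had 2 and 0 against 13 and 17 (-3.89, SE 0.60, adjusted p = 9.75e-05). The calls of Ric8b, Nck2, Btaf1 and Traf3ip2 were lost when 1 library was left out, with adjusted p of up to 0.0714, 0.0712, 0.165 and 0.307.

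Among the promoters with the most gained pairs were genes outside the lists. Pou3f2, of a POU factor of the nervous system, had 72 and 73 calls against 29 and 21 (1.43, SE 0.18, adjusted p = 7.11e-06), with 42 gained, 7 lost and 3 kept partners. Chordc1, of a heat shock cochaperone, had 218 and 202 against 79 and 83 (1.26, SE 0.11, adjusted p = 1.1e-07), with 90 gained and 23 kept. Zfp324, a zinc finger gene, had 158 and 164 against 45 and 48 (1.68, SE 0.14, adjusted p = 3.73e-08), with 61 gained and 7 kept. Tafa2, of a secreted neuronal protein, had 138 and 122 against 37 and 46 (1.54, SE 0.17, adjusted p = 2.11e-06), with 41 gained and 9 kept. In all 4 the PA2 libraries were above both E8.5 libraries, which a choice by gained pairs favours. Many gained pairs did not always come with a large rise. Hjurp, picked by the same rule, did not pass (log2 difference 0.16, adjusted p = 0.598), and Zik1 rose less (0.58, adjusted p = 0.00994).

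Contacts are not transcript levels, so the labelled cell type could not be checked by expression of marker genes, and a mixture of cells was not tested. Summed calls per 10000 of marker lists of other cell types were 11.1 and 12.1 in PA2 and 12.9 and 13 at E8.5 for neuronal and glial genes, 9.55 and 10.5 against 9.82 and 10 for epithelial genes, and 11.1 and 8.98 against 11.4 and 9.96 for endothelial genes. Muscle genes had 6.26 and 6.99 against 7.02 and 7.42, and blood genes 10.6 and 11.3 against 11.2 and 13. Of the tested baits, 0 of 9 neuronal, 0 of 8 epithelial and 0 of 5 muscle baits changed, 3 of 8 endothelial baits did (Tek and Cdh5 rose, Esam fell) and 4 of 13 blood baits did (2 in each direction), against 19.3% of all baits. With 1 library left out, endothelial rises numbered 1 or 2 and falls 0 or 1. Blood rises then numbered 0 without PA2 replicate 1, PA2 replicate 2 or E8.5 replicate 2 and 1 without E8.5 replicate 1, and falls 1 without PA2 replicate 1, PA2 replicate 2 or E8.5 replicate 1 and 2 without E8.5 replicate 2. Polycomb subunit genes rose at 1 of 13 baits, Cbx8, and housekeeping genes rose at 1 and fell at 3 of 26.

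Over the whole genome, PA2 gained 31601 cis pairs and lost 23851, and 39035 were kept. Kept pairs were the shortest, with a median of 245 kb and 7.4% over 1 Mb, against 455 kb and 27.9% for gained and 367 kb and 26.4% for lost pairs. Pairs joining 2 baits made up 11.8% of gained, 16% of lost and 21.7% of kept pairs. The lower of the 2 replicate scores was under 6, close to the listing limit of 5, in 51.7% of gained, 57.8% of lost and 22.2% of kept pairs. With the requirement that the same bait had no call within 20 kb of the partner in the other stage, 10677 pairs were gained and 10089 lost, so most gained and lost pairs lay near a partner called at the other stage. Scores of at least 10 in both replicates were found for 1668 gained, 793 lost and 11196 kept pairs. Absence from a list means a score under 5, not that the fragments never touched.

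The lost pairs of highest score included pairs of developmental promoters. The pair Hoxd10 and Dlx2, 3148 kb apart, scored 21.2 and 11.2 in the E8.5 libraries and was listed in neither PA2 library, as were Hoxd8 and Dlx1, Hoxd13 and Dlx1, Hoxd11 and Dlx2, Hoxb2 and Hoxb8 at 71.1 kb, and Pax9 and Twist1, factors of jaw and skull, at 22740 kb. Among gained pairs of high score, fragments of the histone gene cluster (H1f5 and H3c11 with a partner 1767 kb away, scores 54.9 and 46.9) and the pair Foxl2 and Zic1 at 7592 kb (25 and 25.9) stood out.

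Many gained cis pairs were also listed in the other tissues. Of the gained pairs 56.1% were called in at least 3 of the 6 WT FNP, Mx and Md libraries and 16.8% in none, and of the lost pairs 18.5% and 51.3%. Each of these WT libraries listed 47.9% to 52.8% of the gained pairs. PA2 libraries of Ezh2cKO listed 52.1% and 52.6% of them, and PA2 libraries of the deletions 38.9% to 42.4%. Kept pairs were also listed less in PA2 of the deletions, at 74.4% to 78.9%, against 87.2% to 89% in the other WT tissues. In PA2 of Ezh2cKO these were 85.7% and 85.3%. The lower share in the deletions was thus not particular to gained pairs. The other tissues were compared with the same E8.5 libraries here, so these shares are not independent of the stage comparison.

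**Figure D5:**
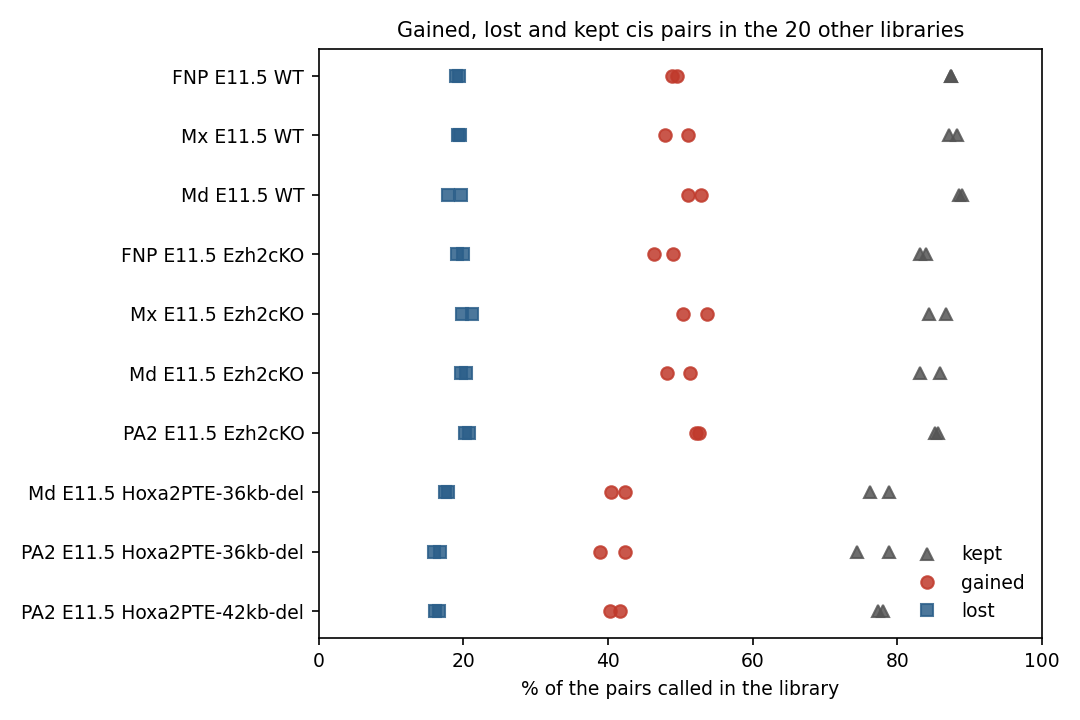
Percent of the gained (red circles), lost (blue squares) and kept (grey triangles) cis pairs of the second arch comparison that each of the 20 other libraries listed, with 1 point per library and groups as lines. Gained pairs were listed at 47.9% to 52.8% in the other WT E11.5 libraries, and kept pairs at 87.2% to 89%.

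Direct comparison of PA2 with the mean of the other 3 WT tissues called 26 of the 10344 baits (0.251%), of which 6 were higher in PA2 (0.058%) and 20 lower (0.193%); the weighted fit called 18 higher (0.174%) and 12 lower (0.116%). Without PA2 replicate 1 it called 0 higher and 9 lower, of which 2 were among the 26, and without PA2 replicate 2 0 higher and 15 lower, of which 6 were. Beside Hoxa2, Dlx2, Hoxb2 and Eya1, the only such promoter among those named by rule was Srek1, of a splicing regulator, with 1 and 1 calls in PA2, 12 and 13 at E8.5 and a log2 difference from the other tissues of -2.04 (adjusted p = 0.013; 0.193 in the weighted fit, 0.113 without PA2 replicate 1 and 0.122 without PA2 replicate 2). Chosen after their values were seen, Eya4, a relative of Eya1, had 6 and 7 calls in PA2 and -1.57 (adjusted p = 0.00502), Msx2, of a homeobox factor of the arches, 9 and 9 and -1.24 (0.0125), and Fgf10, a growth factor gene, 5 and 5. Tmem109, of a membrane protein, had 18 and 20 and was higher in PA2 (1.51, adjusted p = 0.0121). For promoters such as Smad7, Foxp2, Prrx1 and Gas1 the same test gave adjusted p = 0.684, 0.38, 0.946 and 0.654, so their difference from E8.5 was not shown to be particular to the second arch.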

How the data were processed

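The deposited files list 1 library each, with a bait, another fragment and a score per called pair. Scores were deposited by the authors and come from CHiCAGO, per the deposited file names, with a minimum of 5. Coordinates are in GRCm38 (mm10), per the submitters' processing notes. Aligner, caller version and caller settings: not given in the sources used here. Because read depth was unknown, no count model was fitted and no interval for depth is given.

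The samples were grouped by title. The 22203 baits were named from RefSeq tables of GRCm38.p6: 16567 received a name, 1859 of them several. Of the baits, 12993 hold a start site of the promoter table, 3110 were named only by an annotated end of a gene and 464 by a start site or gene end outside the fragment but within 1 kb. Smad7, Foxp2, Hoxb2, Eya1, Dlx5, Alx4, Ets1, Wnt5a, Boc, Fn1, Osr1, Hes1 and Heyl were named by an end only, with no start site of that table in the fragment. The same holds for Rplp1, Uspl1, Rassf8, Tppp3, Seh1l, Dele1, Traf3ip2, Tbc1d31 and Lrp1b. Tom1l1, Nrg2 and Msx2 were named only by a site within 1 kb of the fragment.

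Cis calls per bait were expressed as log2 of the calls plus 0.5 per total cis calls of the library. Baits averaging at least 5 calls over all 24 libraries (10344) entered a limma fit (version 3.58.1, R 4.3.3) of 12 group means that share the spread, tested two-sided with Benjamini-Hochberg adjustment over all baits. A pair of 2 baits was counted for both. The plan counted the first-listed bait only. This was changed when the order of listing was seen to differ between the deletion libraries and all others. Because values are shares of a library's calls, a shift shared by every bait cannot be seen. The scripts were tested on simulated data, in which low counts gave more false calls than in a fit weighted by expected calls. That weighted fit was added after the data were seen.

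Members and gene lists were chosen with earlier results of these data known. Genes were named by rule: the largest changes whose libraries did not overlap, up to 6 changed promoters per list, a set of crest and arch genes given always, baits with the most gained, lost or exchanged pairs, and pairs with the highest scores. Some genes taken by the rule are not reported here. Alternatives varied the pseudocount, filters, scaling, score limit, distances, libraries fitted and the replicate block.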

Additional observations from a re-analysis of the deposited data

Results flagged for a closer look

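For 5 named promoters, the test of the second arch against the mean of the other 3 WT E11.5 tissues passed the threshold, so the change from E8.5 differed between tissues there (the E8.5 libraries cancel). The log2 differences were -2.04 for Srek1, -1.98 for Hoxb2, -1.46 for Eya1, 1.31 for Hoxa2 and 1.21 for Dlx2. As a share of all tested baits 0.251% passed this test. Each of the 5 calls was lost in at least 1 fit with 1 library left out, as given beside each above.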

How the results depend on the processing

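No tested alternative turned the split between promoters that rose and fell: the share of rises was 58.9% to 77.9%, against 69.3% as reported. The 1993 changed promoters became 1090 with scores of at least 7 and 489 with scores of at least 10, and 1142 to 1275 when 1 library was left out. The replicate numbers do not pair the groups (correlation of replicate differences over 10344 baits 0.00476), and the replicate block gave 1985 changed promoters. The 26 baits that differed from the other tissues became 10 with a mean of at least 10 calls, 7 with scores of at least 10 and 9 to 21 with 1 library left out, and 25 with the replicate block. Gained cis pairs numbered 7891 and 1668 with both scores at least 7 and 10, and 38786 to 95022 with 1 library left out, where fewer lists must hold a pair, and 10677 with no call of the bait within 20 kb at E8.5. Lost pairs numbered 4592, 793, 30399 to 87021 and 10089. Hox baits that changed numbered 7 after centring and 7 in the weighted fit, and FGF baits 1 in the weighted fit. With scores of at least 7 the libraries listed 69408, 70084, 58083 and 62054 pairs, the share over 1 Mb in PA2 replicate 1 was 31.3%, and the median distance at E8.5 was 419 and 429 kb. Directions turned for Gsc (-0.23), Tfap2a (-0.4) and Wnt7b (0.68) with scores of at least 10, and for Tfap2a (-0.52), Foxd2 (0.25), Meis1 (-0.66), Hoxa2 (-1.41), Zik1 (-1.12) and Dlx2 (2.24) with calls up to 1 Mb. The cause was not tested.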

Other observations

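Some fragments took part in many changed pairs at once. The fragment of Zik1, a zinc finger gene on chromosome 7, was the gained partner of 23 baits, and it had 388 and 428 calls in the second arch and 251 and 257 at E8.5. The fragment of Fiz1 and Zfp524, also on chromosome 7, was gained by 18 baits, with 122 and 131 calls against 84 and 102. Several of these baits are zinc finger genes themselves, a family with near-identical copies that can share reads, and the part of such reads in the values was not tested. The Dlx1 fragment was the lost partner of 11 baits, and its own calls were 29 and 26 against 20 and 25.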
